A study of Mus musculus with 384 samples.

Results

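Tcra, Tcrb, Igh and Igk are the symbols of whole antigen receptor loci: the T cell receptor alpha and beta chains, the immunoglobulin heavy chain and the immunoglobulin kappa light chain. These 4 rows were taken by name out of the 50556 gene symbols of the count matrix, chosen by their detection: earlier results of the same data had shown counts for all of them in most single cells. Their detection and level across cells are therefore given as a description, with no test. Regulatory T cells (Treg cells), the CD4 T cells that carry Foxp3 and restrain immune responses, had been sorted from mouse ear skin. The ears had received vehicle or 5% imiquimod, a cream that activates Toll-like receptors and inflames the skin, and cells were taken on day 3 from 2 mice per treatment. Strain, age and sex of the mice are not given in the sources used here, and no label ties a plate to a mouse. Each of 4 plates, 2 with vehicle cells and 2 with imiquimod cells, held 87 wells with a single cell, 4 wells with 10 cells and 5 wells with no cell. The labels give no treatment for the wells with 10 cells or none.

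A T cell builds each receptor chain by joining variable and joining segments, at some loci with a diversity segment between them. The rearranged gene is then transcribed together with a constant region. The alpha and beta chains pair on the cell surface and signal through the CD3 proteins, of which Cd3e encodes one. B cells do the same at the immunoglobulin loci, and Cd79a and Ms4a1 (the gene of CD20) mark them. A mature alpha-beta T cell is thus a place for Tcra and Tcrb messages, while rearranged Igh and Igk messages belong to B cells and plasma cells. A locus symbol collects reads from a stretch of the genome that holds many segments, and the segments have symbols of their own.

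The constant regions are shown because every productive message of a locus ends in one, so that their reads would be the plainest sign of expression. The first 120 coding bases, from GENCODE M21 transcripts of GRCm38, are printed 5′ to 3′ in lower case for Trac (chromosome 14), Trbc1 (chromosome 6), Ighm (chromosome 12) and Igkc (chromosome 6).
Trac: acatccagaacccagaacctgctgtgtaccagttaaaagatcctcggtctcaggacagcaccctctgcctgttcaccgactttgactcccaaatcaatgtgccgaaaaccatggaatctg
Trbc1: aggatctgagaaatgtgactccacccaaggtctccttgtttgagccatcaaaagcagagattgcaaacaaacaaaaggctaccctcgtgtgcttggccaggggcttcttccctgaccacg
Ighm: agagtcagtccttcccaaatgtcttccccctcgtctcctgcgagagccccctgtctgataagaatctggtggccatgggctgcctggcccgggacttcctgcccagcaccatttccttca
Igkc: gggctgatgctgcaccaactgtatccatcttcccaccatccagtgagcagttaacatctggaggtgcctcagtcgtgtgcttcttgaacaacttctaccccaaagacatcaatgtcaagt
Trbc2, the second beta constant region, has the same bases as Trbc1 in this stretch (0 of 120 differ), and the coding regions of both agree at 489 of 518 aligned columns (94.4%). A short read from the start of the beta constant region could therefore come from either copy.

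The rows of these constant regions held nothing. Trac, Trbc1, Trbc2, Ighm and Igkc each had 0 counts in every well of the file, while over the same wells Tcrb held 366986 counts, Tcra 110226, Igk 76732 and Igh 68499. Reads of these 5 constant regions were thus not listed under their own symbols, and the locus rows held most of the receptor counts. Among the segment and constant-region rows matched inside the locus spans, counts were found only on the strand opposite to the constant region in GENCODE M21. At Tcrb this was Trbv31, a variable segment placed in inverted orientation behind the constant regions, with 5155 counts in 5 wells, 1 of them a kept single cell. At Igk it was 21 of 85 opposite-strand segments, with 6706 counts. None of the 81 matched same-strand segments of Igk had a count, nor did any matched same-strand segment of Tcra, Tcrb or Igh. By number of kept cells the leading matched segments were Igkv6-13, in 2 kept cells, and then Trbv31 and Igkv8-30 among 15 segments in 1 kept cell each, with 2041 and 1042 counts. Igha, the constant region of IgA, was not among the matched rows and was an exception, with 34 counts in 3 wells. The counting tool and its strand setting are not given in the sources used here, so whether reads over same-strand segments were added to the locus row or dropped is not known.

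Single-cell wells with at least 500 genes and 10000 counts were kept, which gave 58.0% of them: 62 and 58 cells from the plates with vehicle, 38 and 44 from those with imiquimod. Their depth ran from 47481 to 5946386 counts, and the median number of genes per plate from 975 to 1503. The kept cell with the fewest genes (501) and the left-out well with the most (499) each had 0 counts of all 4 locus symbols. All wells with a count held different count vectors. Foxp3 was seen in 37.1% of the kept cells and at least 1 of 8 Treg genes in 90.1%.

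Tcra and Tcrb, the loci a Treg cell rearranges, had at least 1 count in 69.8% and 69.3% of the kept cells (95% Wilson intervals 63.1% to 75.7% and 62.6% to 75.3%). Igh and Igk, the loci of the B lineage, were seen as often or more often, in 71.8% and 82.2% (intervals 65.2% to 77.5% and 76.3% to 86.8%). The order was Igk, Igh, Tcra and Tcrb, and the last 3 did not differ beyond their intervals, which cover counting error only. Cd3e was seen in 23.8% of the cells, Cd79a in 1 cell and Ms4a1 in 1 cell. By number of cells the immunoglobulin symbols stood at rank 8 (Igk) and 16 (Igh) of all genes in the file.

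Most of these detections were a handful of reads. Levels are counts scaled to the well's total (CPM), not scaled by gene length. Among cells with a count, Igh had a median of 3 counts and 3.37 CPM, Tcra 4 counts and 3.81 CPM, Igk 6 counts and 4.62 CPM, and Tcrb 24 counts and 14.7 CPM. Cells with a count lay under 10 CPM in 78.6% of cases for Igh, 69.3% for Igk, 63.8% for Tcra and 44.3% for Tcrb. For Cd3e and Foxp3 the same share was 14.6% and 10.7%. A locus symbol was thus mostly a low value, whereas a cell with a Foxp3 or Cd3e count usually had many.

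A smaller group of cells carried the bulk of the counts. Tcrb reached 100 CPM in 47 cells, Tcra in 29, Igk in 25 and Igh in 16, and 1000 CPM in 32, 14, 13 and 8. The highest cell had 28752 CPM for Igk, 27133 for Tcrb, 21017 for Igh and 6173 for Tcra. On single plates, 1 cell could hold most of a symbol: 86.6% of the Tcra counts of imiquimod plate 1, 72.7% of those of imiquimod plate 2, 64.4% of the Igh counts of imiquimod plate 2 and 64.2% of the Igk counts of imiquimod plate 1. At Tcrb the highest cell held between 28.1% and 38.3% of the counts of each plate.

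**Figure D1:**
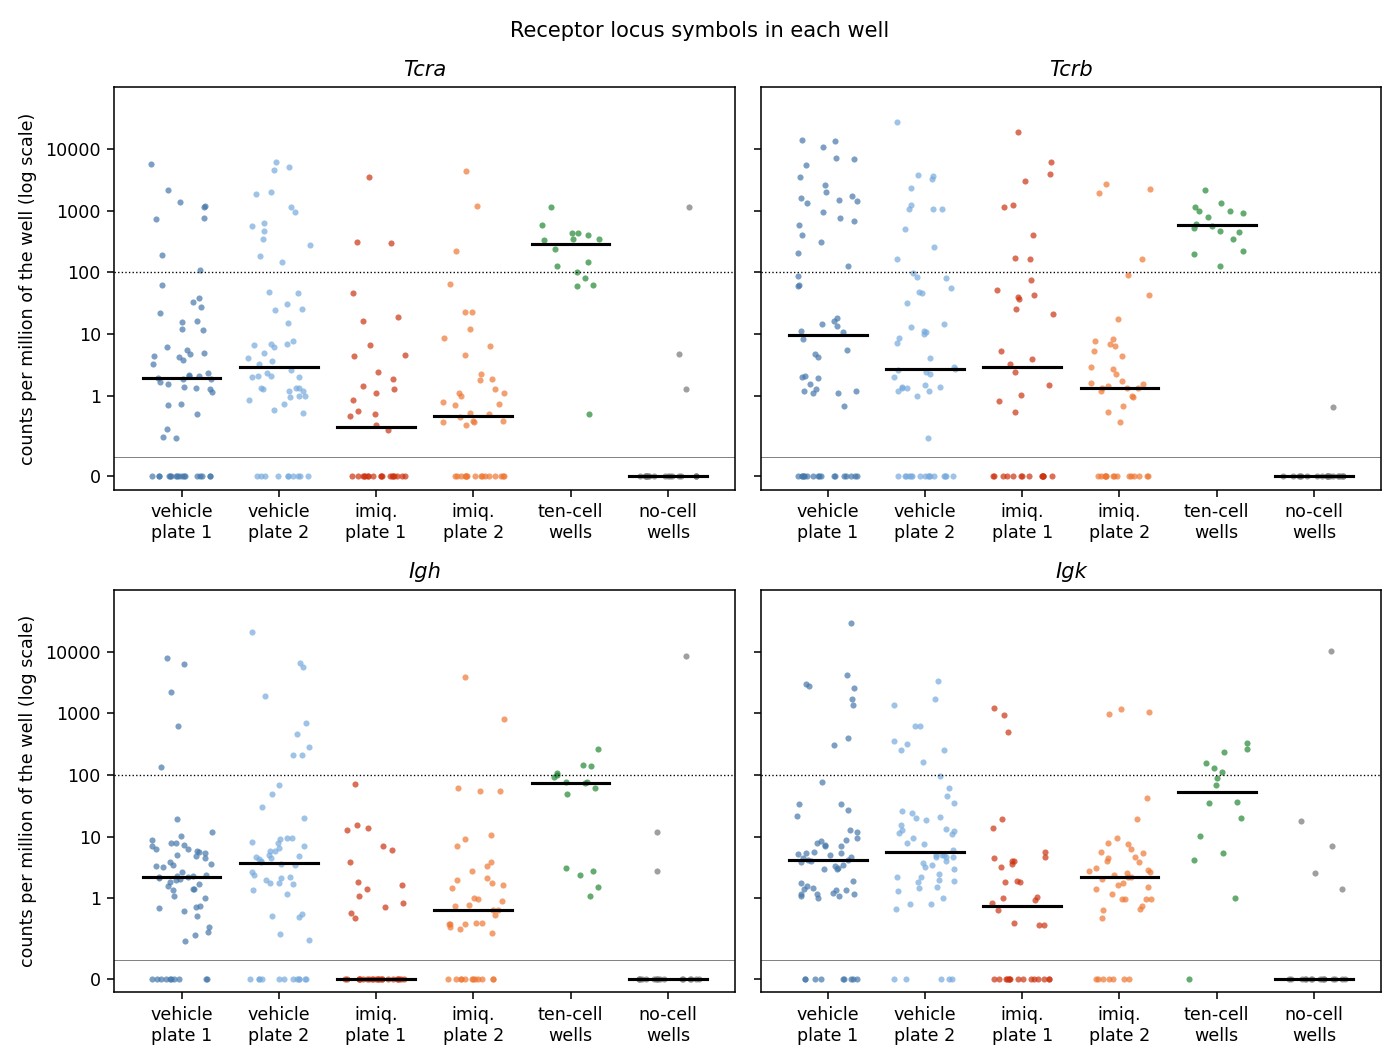
CPM of Tcra, Tcrb, Igh and Igk in each well on a log axis, with wells at 0 placed under the grey line, for the kept single cells of the 4 plates, the 16 wells of 10 cells and the 20 wells with no cell. Each point is a well, the black bar is the median and the dotted line marks 100 CPM. Most single cells lie at 0 or under 10 CPM with a thin upper group, while the wells of 10 cells lie high for Tcra and Tcrb.

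The cells at the top of each symbol were rarely the same. They often lacked Cd3e and Foxp3, as did most kept cells: Cd3e was seen in 23.8% of all kept cells and Foxp3 in 37.1%. The Tcrb maximum, 20969 counts on vehicle plate 2, had 0 counts of Tcra, Cd3e and Foxp3. The cell next to it, with 11404 counts on imiquimod plate 1, had 8 Foxp3 counts and 0 of Cd3e. The Igh maximum, 10519 counts on vehicle plate 2, had 1 count each of Tcra and Tcrb and 0 of Cd79a and Ms4a1. The cell of the second-highest Igh level held 5502 Igh counts together with 27971 Foxp3 counts. The Igk maximum was the shallowest kept cell of vehicle plate 1, with 2524 of its 87785 counts on Igk and 0 on the other 3 symbols. A cell of vehicle plate 2 was among the highest 3 of both Tcra (5291 counts) and Igk (3383 counts). None of these 11 cells, the highest 3 of each symbol, had a Cd79a or Ms4a1 count.

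All 4 rows cover long stretches of the genome. With RefSeq spans of GRCm38.p6, Igk (3171 kb) and Igh (2751 kb) were the longest of 48906 matched genes, Tcra (1796 kb) stood at rank 10, and Tcrb (667 kb) was the shortest of the 4. Detection rose with span over the other genes, from a median of 1.49% of kept cells at 10 to 30 kb through 9.41% at 100 to 300 kb to 38.6% at 1000 to 4000 kb. Of the other genes of 600 kb or more, none was seen in as many cells as any of the 4 symbols. The nearest were Sntg1 (65.8% of cells, 942 kb) and Dmd, the dystrophin gene (59.4%, 2390 kb). At 100 CPM or more the order differed: 3 of those genes reached as many cells as Tcrb, 8 as many as Tcra, 9 as many as Igk and 22 as many as Igh. The other receptor loci had far fewer cells. Tcrg, the gamma chain locus (178.4 kb), was seen in 14.9% and Igl, the lambda light chain locus, in 17.8%, with medians of 1 count in cells with a count. The row of Tcrd, the delta chain locus, had 0 counts in all wells, as did Trdc, its constant region. Rows of other constant regions were also at 0, so this does not show that delta chain RNA was absent. Whether its reads were listed under another symbol is not known. Genes are not independent replicates and the spans come from an older build than the counts, so this relation is a description. The 4 symbols were also chosen by their detection in these data. Their place above the other long genes at 1 count follows in part from that choice and is no test of span.

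**Figure D2:**
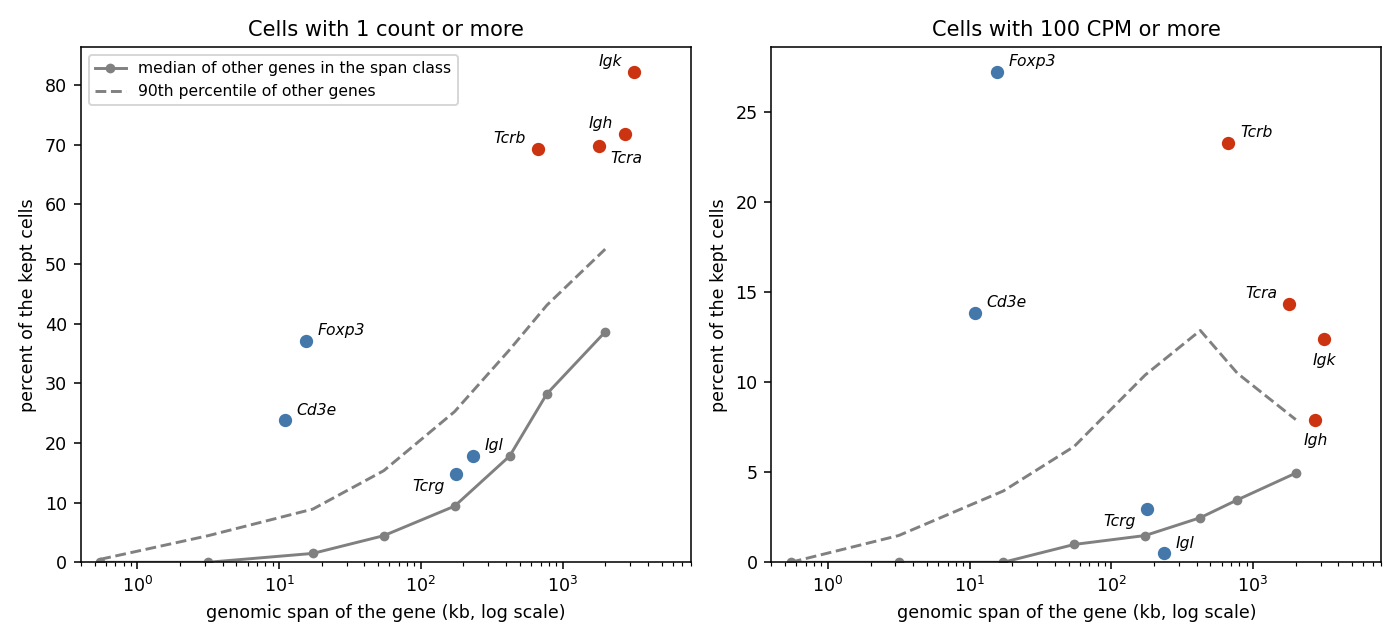
Percent of the kept cells with at least 1 count (left) or at least 100 CPM (right) against genomic span in kb on a log axis. The grey line joins the medians of the other genes by span class and the broken line their 90th percentiles. At 1 count the 4 locus symbols, which were chosen by their detection, lie between 69.3% and 82.2%, above both lines at the long end. At 100 CPM Tcrb stands highest of the 4 at 23.3%.

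Over all kept cells, each pair of symbols was seen together more often than their separate shares would give. Expected numbers are those of independent detection within each plate, summed over plates. For symbols seen in most cells, the ratio of observed to expected cannot rise far above 1. Igk was seen in 92.4% of cells with Igh and 56.1% of those without. Igh was seen in 83.0% of cells with Tcra and 45.9% of those without. With and without Tcra, Tcrb was seen in 74.5% and 57.4%. The smallest gap was that of Igk with and without Tcrb, 85.7% and 74.2%. The part of depth in these gaps was not tested. Tcra and Tcrb, the chains of 1 receptor, were both seen in 52.0% of the cells, 1.07 times the expected number, with 36 cells of Tcra only, 35 of Tcrb only and 26 of neither. Igh and Igk, the chains of 1 antibody, were both seen in 66.3%, which is 1.09 times the expected number. The crossed pairs gave 1.03 for Tcra with Igk, 1.04 for Tcrb with Igk, 1.08 for Tcrb with Igh and 1.124 for Tcra with Igh. Thus the ratio of the T cell receptor pair lay within the range of the pairs that join a T cell locus to a B cell locus. All 4 symbols were present in 86 cells, exactly 3 in 52, 2 in 36, 1 in 20 and 0 in 8. A T cell receptor symbol stood beside an immunoglobulin symbol in 78.7% of the cells.

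At 100 CPM or more the ratios of the pairs lay further apart, on few cells per pair and with no test. Tcra and Tcrb both reached that level in 5 cells against 7.07 expected (ratio 0.707), with 3 of the 5 on vehicle plate 1 and 2 on vehicle plate 2. Igh and Igk both reached it in 6 cells against 2.41 expected (ratio 2.49), in 2, 3, 0 and 1 cells of the 4 plates. Tcra and Igk both did in 8 cells against 4.16 (ratio 1.92), and Tcra and Igh in 5 against 3.03 (ratio 1.65). Tcrb and Igh both did in 3 cells against 3.82 (ratio 0.786), and Tcrb and Igk in 5 against 6.25 (ratio 0.801). No cell had all 4 symbols at 100 CPM, and 55.4% of the cells had none. Of the 35 cells with Igh or Igk at that level, 16 also had Tcra or Tcrb there.

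At 1 count, the ratios of Cd3e and Foxp3 with Tcrb were higher than with the other symbols, a difference that was not tested. Cd3e was seen in 3 of 62 cells without a Tcrb count (4.84%), 24 of 93 with Tcrb under 100 CPM (25.8%) and 21 of 47 at 100 CPM or more (44.7%). Foxp3 was seen in 10 of 62 (16.1%), 37 of 93 (39.8%) and 28 of 47 (59.6%). The ratio of observed to expected cells with Tcrb and Cd3e was 1.28, 1.38, 1.43 and 1.37 on the 4 plates (vehicle 1 and 2, imiquimod 1 and 2), and that of Tcrb and Foxp3 was 1.21, 1.20, 1.36 and 1.30. Tcrb thus stood above 1 with both genes on every plate. Cd3e also stepped up with Tcra, from 16.4% at 0 through 23.2% under 100 CPM to 41.4% at 100 CPM or more, where its ratio was 1.74 against 1.88 for Tcrb. Foxp3 was at 26.2%, 42.0% and 41.4% in these classes of Tcra. At 1 count the plates did not all point one way for Tcra: 1.28, 1.21, 0.76 and 1.10 with Cd3e and 1.15, 1.10, 0.95 and 1.23 with Foxp3. Over all plates Cd3e accompanied Tcra in 38 cells (ratio 1.14) and Foxp3 in 59 (ratio 1.119). The 36 cells with Tcra but no Tcrb held Cd3e in 0 cases and Foxp3 in 5, while the 35 with Tcrb but no Tcra held them in 7 and 11, and the cells with both in 38 and 54.

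For the immunoglobulin symbols the ratios at 1 count lay nearer to 1 and moved with the threshold. The ratio for Igk was 1.05 with Cd3e and 0.971 with Foxp3, and for Igh 1.09 and 1.05. At 10 counts or more, asked of the partner gene too, Igk gave 1.23 and 1.34 and Igh 1.16 and 1.26, beside 2.10 and 1.64 for Tcrb. At 10 CPM or more of both genes Igk gave 0.870 and 1.04 and Igh 0.951 and 0.775. At 100 CPM the level was asked of the locus symbol only, with Cd3e and Foxp3 at 1 count. Among the 16 cells with Igh at 100 CPM or more, 2 had Cd3e (12.5%, interval 3.50% to 36.0%) and 4 had Foxp3 (25%, interval 10.2% to 49.5%). Among the 25 with Igk at that level, 5 had Cd3e and 12 had Foxp3.

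Over all kept cells, those with a count of a symbol had a higher median number of genes. Cells with Tcrb had a median of 1481 genes against 775.5 without, Igh 1355 against 804, Tcra 1300 against 956 and Igk 1170 against 901.5. Single plates went the other way for Tcra on imiquimod plate 1 (764.5 against 1013) and for Igk on vehicle plate 2 (1466 against 1608). In the cells with at least 1000 genes, Cd3e was seen in 42 of 100 cells with Tcrb and 3 of 21 without, and Foxp3 in 55 and 6. The ratios there were 1.125 with Cd3e and 1.09 with Foxp3. With cells thinned to 400000 counts, which equalises total counts but not genes per cell, they were 1.45 and 1.24. The ratios at Tcrb thus stayed above 1 in both settings. They were smaller among gene-rich cells, but most of those cells had Tcrb, which lowers the highest ratio that can be reached. By share, Cd3e was there in 42% of cells with Tcrb and 14.3% without, and Foxp3 in 55% and 28.6%.

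**Figure D3:**
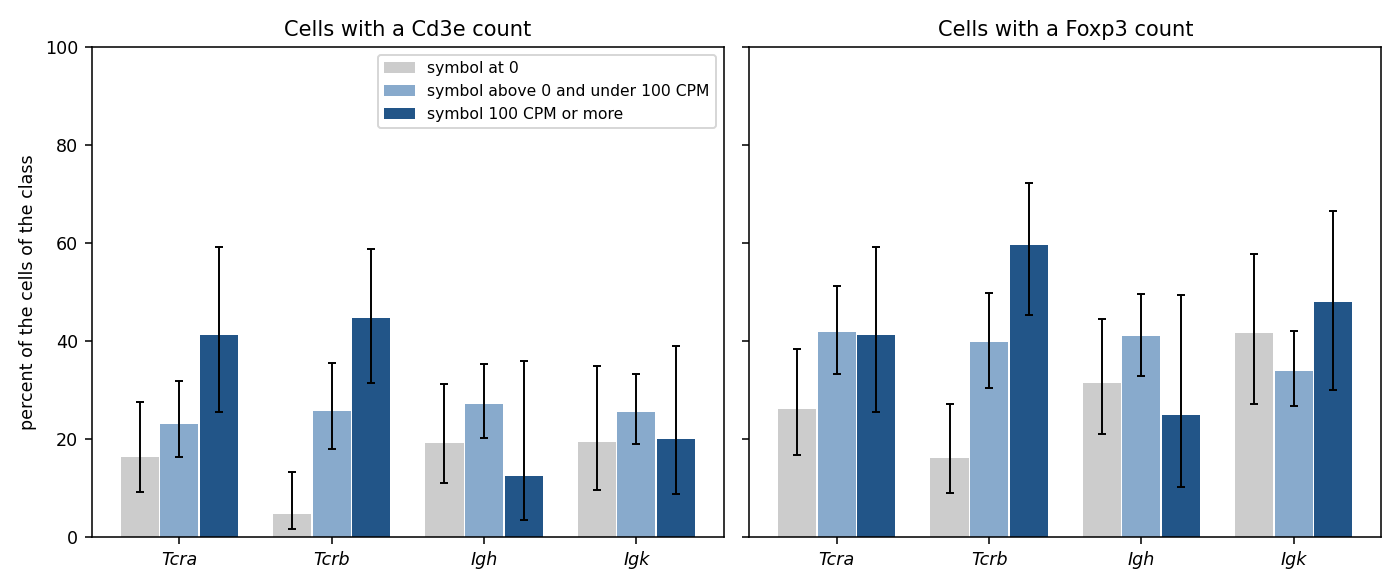
Percent of kept cells with a Cd3e count (left) or a Foxp3 count (right) for each locus symbol, split by whether the symbol was at 0, above 0 and under 100 CPM, or at 100 CPM or more. Bars are shares of the cells of the class and error bars are 95% Wilson intervals. Both genes step up with Tcrb, from 4.84% to 44.7% for Cd3e and from 16.1% to 59.6% for Foxp3, and show no such steps with Igh or Igk.

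The defining B cell markers were nearly absent from the kept cells, and other genes of the B cell list were seen with and without the immunoglobulin counts. Cd79a, part of the B cell receptor signalling unit, was seen in 1 kept cell of imiquimod plate 1, which held 0 counts of Igh and Igk, 62 of Tcrb, 8 of Tcra and 50 of Foxp3. Ms4a1 had 2631 counts in 1 cell of imiquimod plate 2 with 1 Igh count, 0 Igk counts, 1 Tcra count and 0 Foxp3 counts. Neither of these cells was among those with Igh or Igk at 100 CPM. Of 14 B cell genes at least 1 was seen in 15 of the 35 cells with Igh or Igk at 100 CPM or more (42.9%) and in 34.1% of the other kept cells. The genes behind these counts were mainly Bank1 (33 cells) and Ebf1 (23 cells), then Blk and Pax5 (11 cells each, of which 1 and 5 were among the 35), while Cd79b was seen in 0 kept cells. Of 8 plasma cell genes at least 1 was seen in 7 of the 35 (20%) and in 24.0% of the others. Jchain, Mzb1, Derl3 and Tnfrsf17, which plasma cells carry, were at 0 in all kept cells, and the plasma cell counts came from Xbp1, Irf4, Prdm1 and Sdc1.

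The other genes of the receptor pathway were read as lists. All 10 genes of the T cell receptor complex and its coreceptors were seen, with at least 1 of them in 64.9% of the kept cells. Cd2, an adhesion receptor, led with 63 cells, followed by Cd247, the zeta chain, with 58, and Cd3e and Cd4 with 48 each. Cd8a and Cd8b1, the coreceptor of cytotoxic T cells, were seen in 3 cells and 1 cell. In the 71 cells with Tcra or Tcrb at 100 CPM or more, a gene of this list was seen in 73.2%, against 60.3% of the others. In the 35 cells with Igh or Igk at that level the share was 65.7%, against 64.7% of the rest. All 11 genes of proximal signalling were seen, among them the adaptor Skap1 (55.4% of cells), the phosphatase Ptprc (93 cells) and the adaptor Lcp2 (67). The recombination list had 5 of 7 genes, with Prkdc (34 cells) and Xrcc4 (32), both of general DNA repair, ahead of Dntt and Lig4 with 1 cell each. A gene of this list was seen in 51.4% of the 35 cells with Igh or Igk at 100 CPM or more, against 25.1% of the rest. For Tcra or Tcrb at that level the shares were 33.8% and 27.5%. Rag1 and Rag2, the recombinase genes, were at 0 in all kept cells, while Rag2 had a count in 4 wells of 10 cells. Gamma-delta T cell genes other than Tcrg were seen in few cells, Cd163l1 in 11 and Sox13 in 4.

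Lists of other cell types were read in the same way. At least 1 of 6 macrophage genes was found in 21 of the 35 cells with Igh or Igk at 100 CPM or more (60%) and in 35.3% of the others. Within the 35, Adgre1 was in 17 cells, Mrc1 in 7, Lyz2 in 3 and Cd68 in 0. C1qa and C1qb were at 0 in all kept cells, so the share rested mainly on Adgre1. For 6 dendritic cell genes the shares were 62.9% and 44.9%, and for 4 fibroblast genes 22.9% and 7.78%. Of the dendritic cell genes, Cd74 was in 13 of the 35, H2-Aa in 12, H2-Ab1 in 6, Flt3 in 3, Xcr1 in 1 and Itgax in 0. Endothelial genes were found in 20% and 13.8%, and keratinocyte genes in 8.57% and 3.59%. For mast cell genes the shares were 17.1% and 18.6%, for neutrophil genes 5.71% and 8.38%, for natural killer and cytotoxic genes 20% and 21.6% and for erythroid genes 28.6% and 27.5%. Treg genes were found in 91.4% and 89.8%. Cells with Tcra or Tcrb at 100 CPM or more also held macrophage genes (46.5% against 35.9% of the rest), dendritic cell genes (53.5% against 45.0%) and fibroblast genes (15.5% against 7.63%). The part of these other cell types, or of depth, in the immunoglobulin counts was not tested.

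Likeness to each symbol was measured by Spearman's rho of log2(CPM + 1) over the kept cells of a plate, averaged over the 4 plates, and is given as a description of cells that share library and depth. For Tcrb the 5 genes of highest mean rho among 1558 genes were Gm9844 (0.42), Wnk3 (0.41), Rac2 (0.40), Rn18s-rs5 (0.39) and Tmsb10 (0.39). Rac2 encodes a GTPase of blood cells and Tmsb10 an actin-binding peptide. Cd3e followed at rank 9 (0.38, range over plates 0.30 to 0.44) and Foxp3 lower in the order (0.30), while Tcra stood at rank 1192 with 0.08. For Tcra the 5 were Lrfn5 (0.36), Cntnap5c (0.33), Gm29536 (0.33), Dmd (0.32) and Mapkap1 (0.30), with spans from 218.2 kb to 2390 kb. Cd3e stood at rank 972 for Tcra with 0.05.

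The genes most like the immunoglobulin symbols were all of 110 kb or more. For Igh, among 9042 genes, the leading 5 were Pcdh15 (0.43), Nell1 (0.40), Iqcm (0.38), Gm32647 (0.37) and Cntn4 (0.36), which span 536 kb to 1554 kb, and Igk was at rank 6 (0.35). For Igk they were Nkain2 (0.43), Dync2h1 (0.41), Ctnna3 (0.40), Slc4a10 (0.40) and Gm32498 (0.39), which span 110 kb to 1574 kb, and Igh was at rank 17. Pcdh15, Cntn4 and Ctnna3 encode adhesion proteins. Cd3e had a rho of -0.09 with Igh and -0.11 with Igk, and Foxp3 -0.05 and -0.06. The part of span and depth in these values was not tested.

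The comparison of treatments asked whether receptor locus counts differed between Treg cells of imiquimod-treated and vehicle-treated ears. Fewer imiquimod cells had a count of each symbol. For Tcra the share was 72.6% and 82.8% with vehicle against 52.6% and 63.6% with imiquimod (means 77.7% ± 7.20 and 58.1% ± 7.78, SD, n = 2 plates per treatment). Igh was seen in 83.9% and 79.3% against 39.5% and 72.7% (81.6% ± 3.22 against 56.1% ± 23.5). Igk was seen in 85.5% and 91.4% against 60.5% and 84.1% (88.4% ± 4.17 against 72.3% ± 16.7). Tcrb was seen in 72.6% and 72.4% against 63.2% and 65.9% (72.5% ± 0.118 against 64.5% ± 1.95). For all 4 symbols the plates of the treatments did not overlap, and each exact two-sided permutation p was 0.333, the smallest that 2 plates against 2 can give. Lower detection on both imiquimod plates was found for 42.5% of all 14462 genes tested, and for 59.3% of the 150 other tested genes of 600 kb or more. The median difference was -2.53 percentage points over all genes, -10.99 over those long genes and -17.8 over the 4 symbols.

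The median depth was about 812852 and 1213430 counts per kept cell with vehicle and 1179420 and 2223280 with imiquimod, so imiquimod plate 2 was the deepest. With each cell thinned to 400000 counts, which leaves out 11 and 3 vehicle cells and 6 and 0 imiquimod cells, Tcra was seen in 60.8% and 67.3% of vehicle cells and 34.4% and 36.4% of imiquimod cells. Igh was then seen in 62.7% and 61.8% against 25% and 40.9%, Igk in 68.6% and 76.4% against 37.5% and 59.1%, and Tcrb in 66.7% and 63.6% against 56.2% and 52.3%. Imiquimod plate 1 carried much of the Igh and Igk difference: imiquimod minus vehicle was -25.5 percentage points for Igh and -16.1 for Igk with all plates, -8.86 and -4.34 without that plate, and -42.1 and -27.9 without imiquimod plate 2. Of the partner genes, Cd3e was seen in 22.6% and 24.1% of vehicle cells and 26.3% and 22.7% of imiquimod cells, which overlap. Foxp3 was seen in 38.7% and 39.7% against 36.8% and 31.8%, and after thinning in 47.1% and 38.2% against 34.4% and 31.8%, lower on both imiquimod plates each time.

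At 100 CPM or more the counts were small. Igh reached that level in 5 and 9 vehicle cells and in 0 and 2 imiquimod cells. Tcra did in 9 and 14 against 3 and 3, Igk in 9 and 10 against 3 and 3, and Tcrb in 22 and 12 against 9 and 4. The plates overlapped for Tcrb, at 35.5% and 20.7% of vehicle cells against 23.7% and 9.09% of imiquimod cells (exact two-sided permutation p = 0.667), and did not for the other 3 (p = 0.333 each). The share of all genes without overlap was not computed at this level, so the separation of these 3 cannot be set against it.

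**Figure D4:**
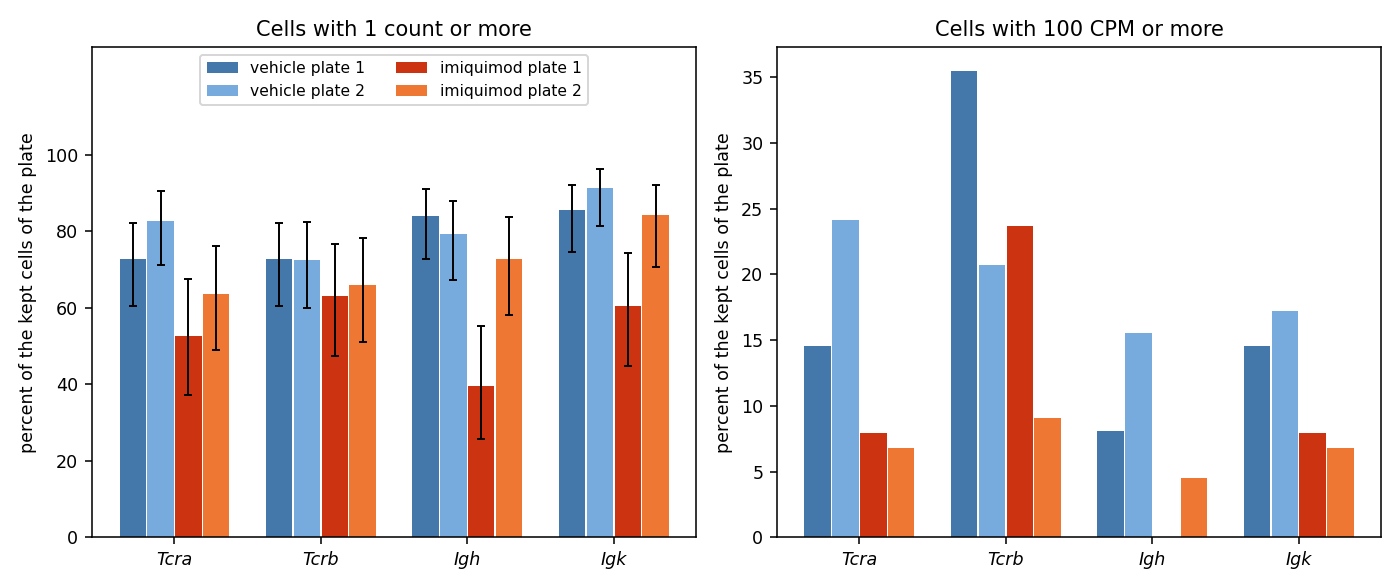
Percent of the kept cells of each plate with at least 1 count (left, error bars are 95% Wilson intervals) and with at least 100 CPM (right, without intervals) of Tcra, Tcrb, Igh and Igk. On the left both imiquimod plates lie under both vehicle plates for each symbol, with the lowest value at Igh on imiquimod plate 1 (39.5%). On the right the plates overlap for Tcrb.

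Sums over the kept cells of each plate gave no called difference. Such sums do not tell fewer cells of a kind from less RNA per cell. In TMM-normalised CPM, Tcra had 190.7 and 233.2 with vehicle against 231.9 and 160 with imiquimod. Tcrb had 1516 and 575 against 1027 and 170. Igh had 111.8 and 336.7 against 2.25 and 59.4, and Igk 225.4 and 113.9 against 114.8 and 83.9. Only Igh had plates that did not overlap, lower with imiquimod. That pattern was found for 31.1% of all genes tested, and plates without overlap in either direction for 44.8%. The log2 fold change of imiquimod over vehicle was -2.86 ± 2.14 (SE) for Igh, -0.80 ± 0.93 for Tcrb, -0.77 ± 1.78 for Igk and -0.11 ± 1.44 for Tcra. With edgeR's quasi-likelihood test and Benjamini-Hochberg adjustment over 14462 genes, the adjusted p was 0.657, 0.816, 0.927 and 0.991. The test called 0% of all genes, with 11.5% at an unadjusted p under 0.05, none of them a member, and DESeq2's test called 3740 genes, again none of them a member. On counts simulated at the dispersion of the real fit, the edgeR test called 0 of 100 genes with a true 16-fold change. Its lack of a call therefore says little about changes of that size or smaller. Tcra and Tcrb changed sign with the plates used. Tcra was 0.044 without vehicle plate 2 and 0.24 without imiquimod plate 2, and 0.39 with DESeq2's size factors, which move the median of all genes from -0.26 to 0.11. Tcrb was 0.068 without imiquimod plate 2 and -2.53 ± 0.83 without imiquimod plate 1 (edgeR adjusted p = 0.130). Igh was -6.52 ± 2.16 without imiquimod plate 2 (edgeR adjusted p = 0.0597) and -1.80 ± 1.45 without imiquimod plate 1. The partner genes had the other sign, with Cd3e at 1.02 ± 1.16 and Foxp3 at 1.05 ± 0.72, also without a call (edgeR adjusted p = 0.813 and 0.610).

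**Figure D5:**
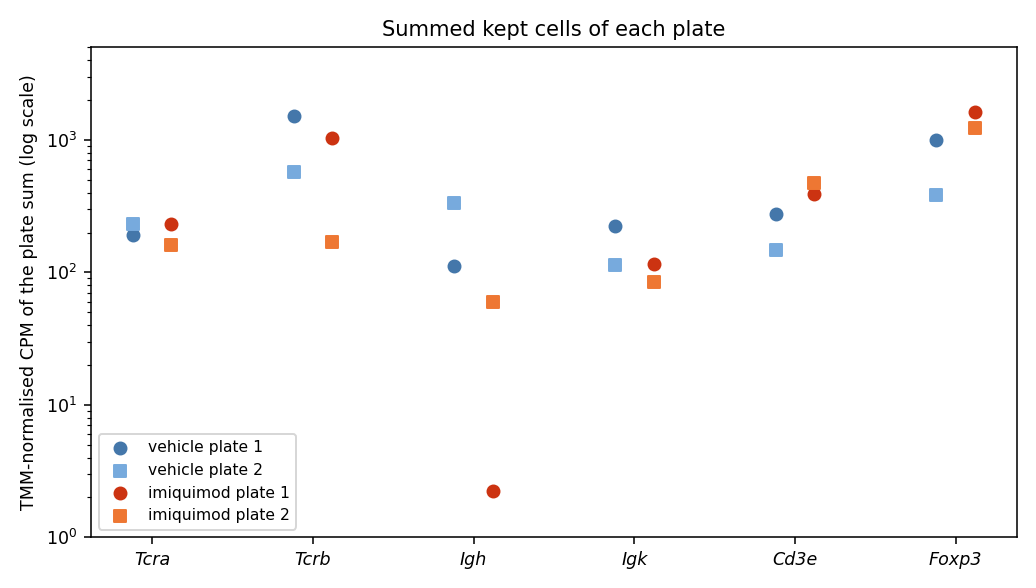
TMM-normalised CPM of the summed kept cells of each plate on a log axis for the 4 locus symbols, Cd3e and Foxp3. Points are plates, with vehicle in blue to the left and imiquimod in red and orange to the right of each position. Igh runs from 336.7 on vehicle plate 2 to 2.25 on imiquimod plate 1, while the other 3 symbols overlap between treatments.

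Wells of 10 cells held the symbols at steadier levels. Tcra, Tcrb and Igh had a count in all 16 and Igk in 15. Tcrb ran from 126.2 to 2191 CPM with a median of 583, and all 16 wells were above 100 CPM. Tcra ran from 0.514 to 1146 CPM with a median of 287.9, and 12 wells reached 100 CPM. Igh ran from 1.09 to 265.1 CPM (median 74.8, 5 wells at 100 CPM or more and 5 under 10 CPM), and Igk from 0 to 331.6 CPM (median 52.5, 6 wells at 100 CPM or more). Tcrb was thus above 100 CPM in every well of 10 cells, Tcra in most of them, and Igh and Igk in fewer. Summed over all 16 wells the level was 739 CPM for Tcrb, 268.2 for Tcra, 110 for Igk and 79.5 for Igh, beside 804, 208.4, 140 and 166.9 CPM in the sum of the kept single cells. Cd79a had a count in 1 of these wells and Ms4a1 in none, while Cd3e was seen in 15 and Foxp3 in 16.

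Wells with no cell were not free of the symbols. Of 20 such wells 16 held any count and 8 held 10000 or more, and 1 of these 8 passed the filter on genes and counts used for cells. Igk was seen in 5 wells with 4391 counts in all, of which 4378 lay in 1 well of vehicle plate 2, at 10215 CPM. In that well Igkv6-23, an inverted kappa segment, held 4322 counts, its only counts in the file. Tcra was seen in 3 wells, with nearly all of its counts in another well of that plate (1139 CPM). Igh was seen in 3 wells with at most 2 counts each, and Tcrb in 1 well with 1 count. Among the 8 wells of 10000 counts or more, the count cutoff used for cells, Igk was seen in 5, Tcra in 3, Igh in 2 and Tcrb in 1. In the kept cells the shares were 82.2%, 69.8%, 71.8% and 69.3%. Cd3e and Foxp3 had 0 counts in the 20 wells, where a count of 0 leaves room for a share of about 15% (Wilson upper bound 16.1%). Only 8 of these wells reached the count cutoff used for cells, so at that depth the room is wider. A level above 100 CPM thus occurred without a sorted cell for Igk and Tcra in 1 well each, and for Igh in a nearly empty well where 1 count was enough.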

How the data were processed

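RNA of single sorted cells, of wells with 10 cells and of wells with no cell was sequenced after oligo-dT priming, template switching and PCR, with no molecular identifiers named, per the labels' protocols. The authors deposited raw read counts by symbol and well. Per the submitters' processing notes they used Trimmomatic 0.39, STAR 2.7.3a, SAMtools 1.12 and the build mm39. How reads were assigned to symbols, with which annotation and strand setting, is not given in the sources used here. Treatment and plate came from the labels. The plate was the replicate (2 per treatment), and p-values measure the spread between plates, which may be technical. Since plates are nested in treatments, other differences between plates and the treatment cannot be told apart. No doublet caller was run on sorted wells.

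Counts of kept cells were summed per plate and tested with edgeR 4.0.16 (default expression filter, TMM, quasi-likelihood test, adjusted p under 0.05) in R 4.3.3. The common dispersion of the real fit was 2.711. On counts simulated at a dispersion of 0.1, the test called 75 of 100 genes with a 4-fold change and 100 of 100 with a 16-fold change. Simulated at the dispersion trend of the real fit, it called 0 of 100 in each case. Shares were compared by exact permutation, and intervals are 95% Wilson intervals. PCR copies are not independent molecules, so intervals and limits (3 counts at a count of 0) cover counting error only. Spans came from RefSeq GRCm38.p6, which matched 96.7% of symbols, and strands and sequences from GENCODE M21. Both are of an older build than the counts.

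The members, lists and tests were chosen with earlier results of these data known. Named were the members, their partners, the leading segment rows, the 5 genes most like each member (seen in at least 20% of cells for Tcra and Tcrb, 5% for Igh and Igk) and up to 4 genes per list by detection. Genes named beyond these (long genes, other receptor loci, further markers, the highest cells) were chosen after their values were seen. Alternatives were DESeq2 1.42.0, its size factors, limma 3.58.1 on mean log2(CPM + 1), no expression filter, other cell and detection filters, thinning to 400000 counts and leaving out each plate. Detection at 100 CPM and fits without the highest cell per plate were chosen after seeing the data.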

Additional observations from a re-analysis of the deposited data

How the results depend on the processing

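In none of the alternatives did a locus symbol pass an adjusted p of 0.05. Of 48 refitted log2 fold changes 43 kept their sign. The exceptions were Tcra with DESeq2's test and with its size factors in edgeR (0.39 in both), without vehicle plate 2 (0.044) and without imiquimod plate 2 (0.24), and Tcrb without imiquimod plate 2 (0.068). Leaving out a plate gave -0.32 to 0.24 for Tcra and -2.53 to 0.068 for Tcrb. The count of genes called, 0 in the edgeR fit, was 3740 with DESeq2, 9 without the expression filter and between 0 and 794 when a plate was left out, above 0 without imiquimod plate 1 and at 794 without imiquimod plate 2. The cause was not tested. All 40 refitted differences in the share of cells with a count kept their sign.

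Co-detection moved most with the detection threshold. At 10 counts or more of both genes the ratio of observed to expected was 1.40 for Tcra with Tcrb and 1.30 for Igh with Igk. It was 2.10 for Tcrb with Cd3e and 1.64 for Tcrb with Foxp3. At 10 CPM or more of both genes these were 1.29, 1.35, 1.97 and 1.58. With the locus symbols at 100 CPM or more, and Cd3e and Foxp3 at 1 count, they were 0.707, 2.49, 1.88 and 1.57. In cells of at least 1000 genes Tcrb gave 1.125 with Cd3e and 1.09 with Foxp3. Thinned cells gave 1.17 for Igh with Igk and 1.45 for Tcrb with Cd3e.

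No paired analysis was possible because well numbers do not pair cells across plates and each plate holds 1 treatment. Most detections rest on few reads and plates of 1 treatment differed widely, so the lack of a call does not show that the treatments were alike.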
